A study of Mus musculus with 4 samples.

Results

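White fat from the epigonadal depot, which lies against the epididymis and testis, was compared directly between LTKO and LDKO mice, the pair of lines that carry a Cre transgene. The difference is the log2 signal of the LTKO array minus that of the LDKO array, so 1 unit is 2-fold and a positive value is higher in LTKO. A gene was the probe that names exactly 1 gene symbol and is the brightest such probe by its mean signal over the 4 arrays. This left 22180 genes, of which 11660 passed a filter that asked the brighter of the LTKO and LDKO arrays to reach the median gene (5.15), and 246 of the 11660 (2.11%) were at least 2-fold apart. These are 2 of the 4 arrays of the series, with 1 array per group.

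LDKO mice are Irs1/2-flox with Albumin cre, LTKO mice are Irs1/2:FoxO1-flox with Albumin cre, and the control of each is the line with the same floxed genes and no Cre. All 4 groups were male and fasted, LDKO and LTKO were 4 months old, and no age is given for the controls. The albumin promoter directs Cre to hepatocytes, so both lines lack Irs1 and Irs2 in the liver, LTKO also lacks Foxo1 there, and the fat itself is not the target of the deletion. The labels do not tell single animals from pools, and without replicates the differences carry neither error nor test. The number of arrays limits the precision.

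Insulin receptor substrates 1 and 2 relay the signal of the insulin receptor to PI3 kinase and Akt. In the hepatocyte, Akt keeps the transcription factor FoxO1 out of the nucleus, and without Irs1 and Irs2 FoxO1 stays active and drives glucose production and a secreted programme that includes follistatin. White fat of a fasted mouse releases fatty acids, and its lipid synthesis, glucose uptake and mitochondrial genes respond to insulin, glucocorticoids and nutrients. The direct comparison asks how fat differs between animals whose livers lack both substrates with Foxo1 present or absent.

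The floxed genes were read in fat first. Irs1 was 6.96 without Cre and 7.46 with Cre (LDKO) in the Irs1/2-flox line, and 7.86 without Cre and 7.09 with Cre (LTKO) in the Irs1/2:FoxO1-flox line, a difference of -0.37 between LTKO and LDKO. Below, 4 values given without labels keep this order: Irs1/2-flox control, LDKO, control with floxed Foxo1 as well, LTKO. Irs2 was 7.96, 7.63, 7.93 and 7.79, a difference of 0.17. Foxo1 was 8.22, 8.02, 8.37 and 8.26, a difference of 0.23. No floxed gene differed by 2-fold between any pair of the arrays, and since the deletion is in hepatocytes these values do not check the labels. The second probes of Irs1 and Foxo1 differed by 0.06 and -0.18 and so had the opposite sign to the first. Fst, which encodes follistatin, was 6.78, 6.30, 6.89 and 6.80 in fat, a difference of 0.50.

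The tissue label was read against 20 adipocyte markers, of which 17 were measured. Their mean signal was 10.85 and 11.11 in the Irs1/2-flox line without and with Cre, and 10.99 and 10.92 in the Irs1/2:FoxO1-flox line without and with Cre, far above the median gene in every array. Adiponectin (Adipoq), an adipocyte hormone, was 10.49, 10.57, 10.48 and 10.35. Leptin (Lep), the hormone that reports fat stores, was 10.24, 11.09, 9.47 and 10.20, a difference of -0.89 against -0.77 between the controls.

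Of the 246 genes, 176 were higher in LTKO (1.51% of the genes past the filter) and 70 were lower (0.600%). Between the floxed controls, which share no array with this comparison, 88 of 11432 genes (0.770%) were 2-fold apart. Over the 11090 genes whose mean over the 4 arrays reached the median gene, called bright genes below, the median difference was 0.05, 57.6% were higher in LTKO and 93.2% lay within 1.5-fold. The SD of the difference across bright genes was 0.33, against 0.28 between the controls. Across the 11134 genes that passed both filters the 2 differences had a Pearson's r of 0.03 and a Spearman's rho of 0.04, a description over genes that share the same arrays.

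The control arrays were then used to say where each of the 246 genes stood. In 19 (7.72%), the floxed controls differed by 2-fold or more in the same direction, and these are called line differences. In 68 (27.6%), LTKO was at least 2-fold from each of the 3 other arrays, and in 48 (19.5%) LDKO was. None had both Cre arrays apart, and in the remaining 111 (45.1%) neither Cre array was 2-fold from all others. By direction, LTKO apart held 67 higher and 1 lower, LDKO apart 22 higher and 26 lower, and line differences 6 higher and 13 lower. The LTKO-apart genes were mostly dim elsewhere, with 45 of the 68 below the median gene in all 3 other arrays. These 45 passed the filter only through the LTKO array, so the filter fixed their direction as higher in LTKO.

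**Figure D1:**
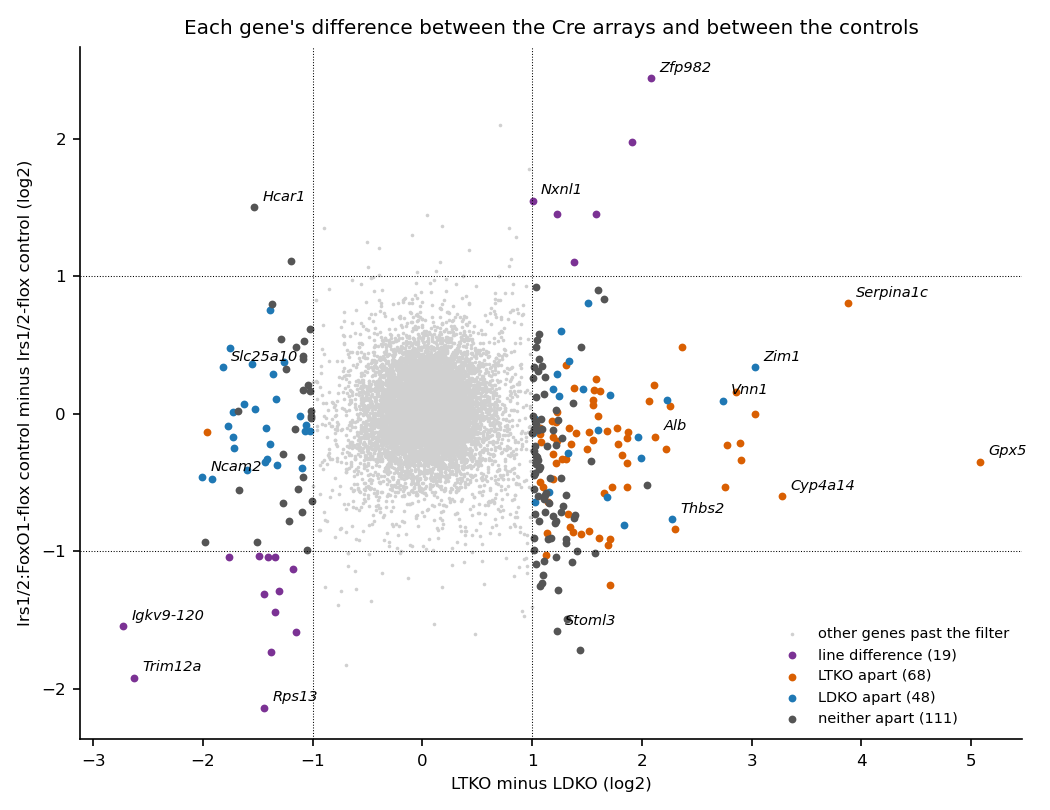
Each point is a gene past the filter, with LTKO minus LDKO on the horizontal axis and the difference between the floxed controls (with minus without floxed Foxo1) on the vertical axis, both in log2 units; colours mark the classes of the 246 genes 2-fold apart and dotted lines mark 2-fold. The LTKO-apart genes reach 5.08 on the right, and the 19 line differences lie in the upper right and lower left corners.

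In the genes with the 3 largest differences LTKO alone was high. Gpx5, a secreted glutathione peroxidase of the epididymis, was 3.32 without Cre and 3.20 with Cre (LDKO) in the Irs1/2-flox line, and 2.97 without Cre and 8.28 with Cre (LTKO) in the Irs1/2:FoxO1-flox line, a difference of 5.08. Serpina1c, of the alpha-1-antitrypsin family made by the liver, was 2.84, 2.94, 3.65 and 6.81 in that order, a difference of 3.88. Cyp4a14, a fatty acid hydroxylase of the cytochrome P450 family, was 3.76, 3.40, 3.16 and 6.67, a difference of 3.27. In all of these the 3 other arrays lay together near the bottom of the array's range and LTKO stood well above them. The epididymal lipocalin Lcn9 was 4.62, 4.77, 4.62 and 7.80, and Defb48, an epididymal defensin, was 2.94, 2.52, 2.71 and 5.29. Adam5, a protease-family gene of the testis, was 3.40, 3.23, 3.07 and 6.13, and Smcp, a protein of the sperm mitochondrial capsule, was 3.38, 3.27, 3.17 and 6.17. Fetuin-A (Ahsg), a secreted liver glycoprotein, was 4.66, 4.10, 4.13 and 6.85. Serpina1c and Defb48 belong to families of near-identical copies, so which copy gave the signal is uncertain.

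Most of these genes are markers of tissues other than fat, and the whole marker lists are given for that reason. Counts of measured members use no brightness filter. Without it, 206 of all 22180 genes (0.929%) were 2-fold higher in LTKO and 85 (0.383%) were lower. Of 30 hepatocyte genes measured, 8 exceeded 2-fold with LTKO the higher, 0 with LDKO the higher, and 0 differed by 2-fold between the controls, and the median difference over all 30 was 0.52, where the median of all 22180 genes was -0.01. The mean signal of the hepatocyte list was 4.75, 4.74, 4.69 and 5.57 in the order of arrays above. Albumin (Alb), the main plasma protein of liver, was 7.10, 7.70, 6.93 and 9.82, and apolipoprotein A-I (Apoa1) was 5.0, 4.49, 4.86 and 6.36. The 3 other arrays again lay within 0.77 of each other for Alb, and LTKO was 2.12 above LDKO.

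Of 32 epididymis genes measured, 8 were 2-fold higher in LTKO, and the mean signal was 3.79, 3.80, 3.74 and 4.4. Their median difference was 0.18, with 23 higher and 9 lower, and 2 of the 32 were bright. Of 31 sperm and spermatid genes, 10 were 2-fold higher, with a mean signal of 4.24, 4.31, 4.21 and 5.14 and a median difference of 0.71. Tnp2, a transition protein that packs spermatid chromatin, was 4.04, 3.95, 3.78 and 6.17. In each of these lists the LTKO array held the highest mean and the others differed little from one another. Together the hepatocyte, epididymis, sperm and motile cilia lists hold 126 measured genes, of which 35 were 2-fold apart. With the filter 30 were, and 25 of these were LTKO apart. Without these 126 genes the count past the filter was 216 in place of 246, of which 146 were higher in LTKO and 70 lower. What part RNA of neighbouring tissue has in the LTKO values was not tested.

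Genes of motile cilia, the beating cell projections of epithelia such as the efferent ducts, had a second pattern. Over 13 bright members the median difference was 0.93, all 13 were higher in LTKO, and LTKO was the highest of the 4 arrays in each. The control difference had the opposite sign, with a median of -0.80. Rgs22 was 6.27, 5.90, 5.02 and 7.61, and Stoml3, a stomatin-family membrane protein, was 7.06, 5.93, 5.48 and 7.15. For Stoml3 the Irs1/2-flox control was nearly as high as LTKO, so LTKO was not apart. Epcam, an epithelial adhesion molecule from the list of mesothelial and epithelial surface genes, was 6.61, 6.27, 5.87 and 7.46. That list had a median of 0.20 over 20 bright members and a control median of -0.51.

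**Figure D2:**
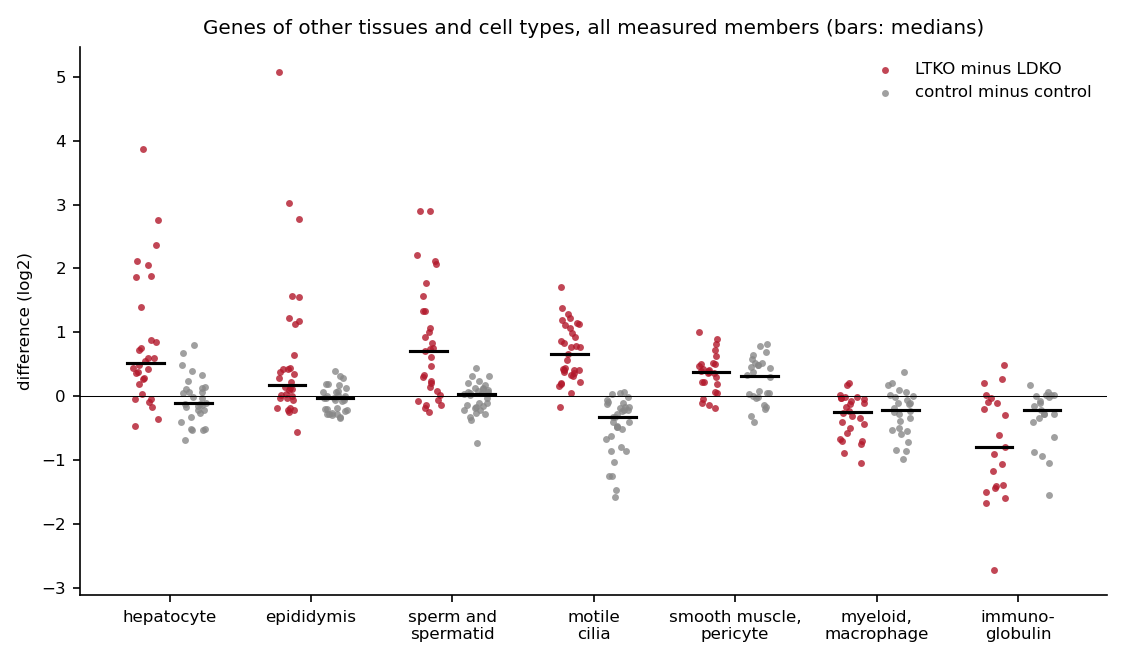
Each point is a measured member of a list, with LTKO minus LDKO in red, the control minus control difference in grey (log2 units) and bars at the medians. Hepatocyte, epididymis and sperm genes have members above 2 only in LTKO minus LDKO, cilia genes have medians of opposite sign, and smooth muscle genes have similar medians in both.

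In 22 genes LDKO alone was low, at least 2-fold below LTKO and both controls. Zim1, an imprinted zinc finger gene, was 9.41 and 5.66 in the Irs1/2-flox line without and with Cre, and 9.75 and 8.69 in the Irs1/2:FoxO1-flox line without and with Cre, a difference of 3.03. Peg3, its imprinted neighbour and also a zinc finger gene, was 11.35, 9.07, 11.45 and 11.30, a difference of 2.23. Mest, an imprinted gene whose level tracks the expansion of fat, was 10.42, 8.55, 10.56 and 10.26, a difference of 1.71. All were bright, and LDKO stood below 3 arrays that nearly coincided for Peg3 and Mest, whereas for Zim1 LTKO differed by -1.06 from its own control. Imprinted genes as a list did not share this: of 30 measured, 4 were 2-fold higher in LTKO and the median over 18 bright members was 0.08. The other of these 4, Cdr1, was 4.70, 3.81, 2.98 and 5.24, with the controls 1.72 apart in the opposite direction.

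Other genes low in LDKO alone had roles in metabolism, matrix and signalling. Vanin-1 (Vnn1), the enzyme that splits pantetheine, was 9.96, 7.34, 10.05 and 10.08, a difference of 2.74. Thrombospondin 2 (Thbs2), a matrix glycoprotein, was 10.44, 7.10, 9.67 and 9.37, a difference of 2.28 against -0.76 between the controls. Irf4, a transcription factor of lymphocytes, macrophages and fasted adipocytes, was 9.42, 6.76, 8.61 and 8.59, a difference of 1.84. For Vnn1 the other arrays lay within 0.12 of one another, whereas for Thbs2 and Irf4 the Irs1/2-flox control was the highest. Gprin3 was 8.65, 6.31, 8.33 and 8.30, and Adap2, a regulator of Arf GTPases, was 10.54, 8.54, 10.37 and 10.51. Ddit4, an inhibitor of mTORC1 that fasting and glucocorticoids raise, was 8.31, 6.83, 8.19 and 8.43, a difference of 1.60.

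In 26 genes LDKO alone was high, so the difference was negative. Slc25a10, the mitochondrial dicarboxylate carrier, was 5.68, 7.75, 6.02 and 5.93, a difference of -1.82. Aldh1a7, an aldehyde dehydrogenase, was 7.59, 9.65, 8.07 and 7.90, a difference of -1.75. Thrsp, a lipogenic nuclear protein known as Spot14, was 9.05, 10.34, 9.09 and 8.82, a difference of -1.52. LTKO and both controls lay within 0.48 of one another in each of these. Steap4, a metalloreductase, was 9.35, 10.70, 9.18 and 8.97, and Bmp3, a ligand of the BMP family, was 6.79, 8.20, 6.54 and 6.48. The adhesion molecule Ncam2 was 5.05, 7.01, 4.60 and 5.0, and Fgf13, an intracellular member of the FGF family, was 4.65, 6.35, 4.18 and 4.43. Lctl was 4.98, 6.85, 4.99 and 5.13 and Serpina3b, of the antichymotrypsin family, was 3.89, 6.08, 3.96 and 4.46. Ncam2, Fgf13, Lctl and Serpina3b were below the median gene in LTKO and both controls. These and some others of the 26 passed the filter only through the LDKO array, so the filter fixed their direction. Insig1, which holds SREBP in the endoplasmic reticulum, was 9.50, 10.74, 9.49 and 9.62, a difference of -1.12.

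A microRNA gene was among those high in LDKO together with its host. Mir708 was 4.86, 6.07, 4.77 and 4.30, a difference of -1.77, and Tenm4, a teneurin in whose gene bounds it lies, was 6.86, 8.28, 7.24 and 7.02, a difference of -1.26. Both were highest in LDKO and lower in the 3 other arrays. Mir708 was below the median gene in those 3, so it passed the filter only through LDKO, which fixed its direction. The second probe of Tenm4 differed by -0.45, less than 2-fold. For Mir708 the array probe reads the gene and not the mature strands, which RefSeq places on chromosome 7 of GRCm38.p6, on the plus strand. They are printed 5′ to 3′ with the seed, bases 2 to 8, in capitals, to show the targeting sequence the locus would carry.
mmu-miR-708-5p: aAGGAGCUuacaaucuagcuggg
mmu-miR-708-3p: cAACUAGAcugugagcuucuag

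**Figure D3:**
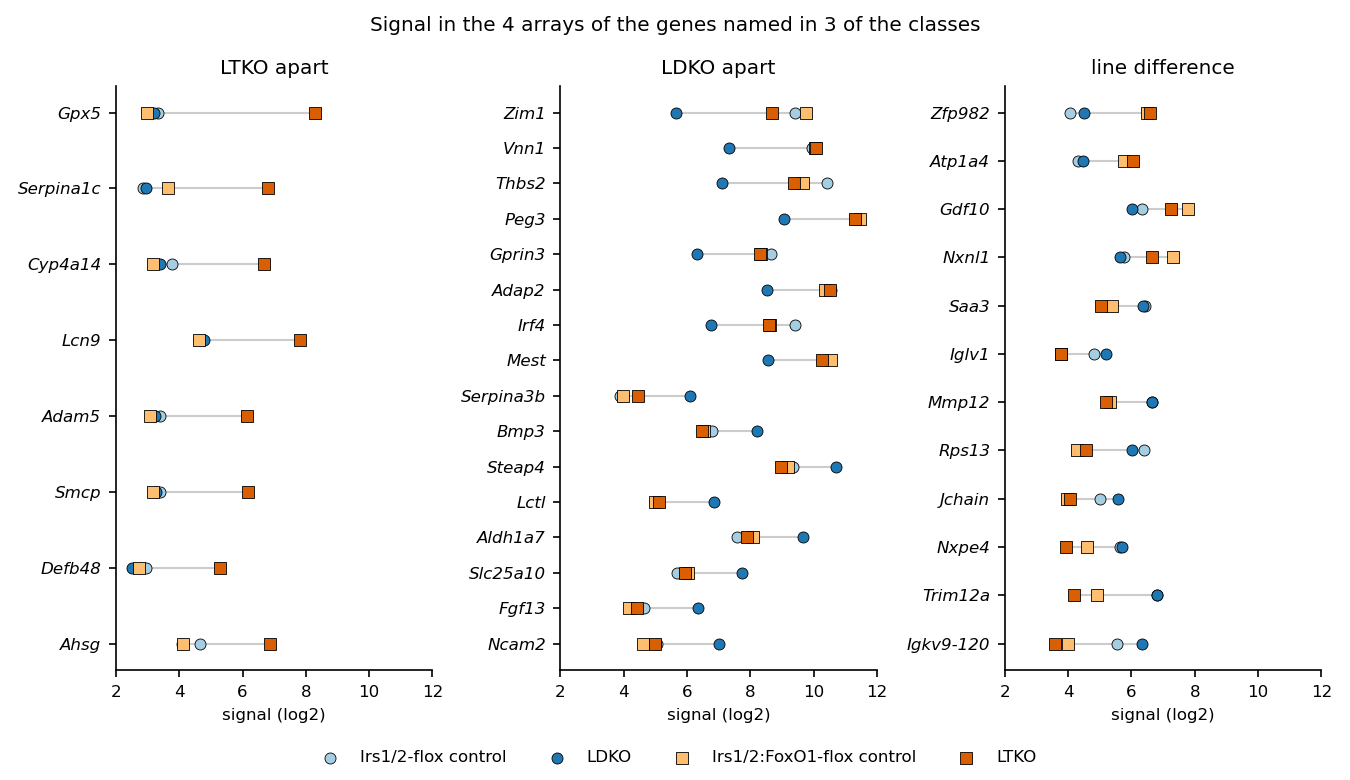
Each row is a named gene and each marker its log2 signal in 1 array, with circles for the Irs1/2-flox lines and squares for the Irs1/2:FoxO1-flox lines, and darker colours for the arrays with Cre. In the left panel LTKO stands to the right of the 3 others, in the middle panel LDKO stands to either side, and in the right panel circles and squares separate.

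The 19 line differences separate the floxed backgrounds with or without Cre. Zfp982, a zinc finger gene, was 4.06 without Cre and 4.50 with Cre (LDKO) in the Irs1/2-flox line, and 6.50 without Cre and 6.58 with Cre (LTKO) in the Irs1/2:FoxO1-flox line, a difference of 2.08 against 2.44 between the controls. Trim12a, of a TRIM gene cluster, was 6.82, 6.80, 4.90 and 4.17, a difference of -2.62 against -1.92. Its near-identical relative Trim12c, which did not reach the filter and was picked after its values were seen, was 2.65, 2.63, 5.23 and 5.05, the opposite direction. The ribosomal protein gene Rps13 was 6.41, 6.01, 4.27 and 4.57, a difference of -1.44 against -2.14. In each of these genes, the arrays paired by floxed line and not by Cre. Gdf10, of the BMP family, was 6.35, 6.03, 7.80 and 7.25, and Atp1a4, a sodium pump subunit of sperm, was 4.31, 4.46, 5.77 and 6.04. Nxnl1 lay at the edge of the rule, with a difference of 1.01 that became 0.96 once a loess curve was removed.

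Several line differences were immune genes. Mmp12, a macrophage elastase, was 6.65, 6.64, 5.34 and 5.21, a difference of -1.44 against -1.31 between the controls. Serum amyloid A3 (Saa3), an acute phase protein, was 6.43, 6.37, 5.39 and 5.02, a difference of -1.34 against -1.05. Jchain, which joins secreted IgA and IgM, was 5.0, 5.56, 3.97 and 4.07. All were lower in both lines that carry the floxed Foxo1. Just outside the rule lay Nnmt, the enzyme that methylates nicotinamide, at 6.17, 6.63, 5.23 and 4.65, a difference of -1.98 against -0.94. Another 17 of the 246 genes had a control difference of 0.5 to 1 in the same direction. In 16, Hcar1 among them, the controls differed by 2-fold or more in the opposite direction.

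Genes next to the floxed loci were read separately. Among the 10 measured genes on each side of Irs1, Irs2 and Foxo1, none was a line difference. Of the 9, 12 and 13 neighbours that passed the filter in this comparison or between the controls, 0, 0 and 1 were 2-fold apart. The 1 was Stoml3, described above, and 2.11% of all genes past the filter in this comparison were 2-fold apart.

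The 59 gene lists of pathways and cell types showed which groups moved without reaching 2-fold. A list was described by the median over its bright members, beside 0.05 over all bright genes. Counts of higher or lower members stand beside 57.6% of all bright genes higher in LTKO. The lowest medians of lists with 10 or more bright members belonged to the Slamf, Fcgr and Ifi200 genes (-0.42), complexes II and III with cytochrome c (-0.39) and complex I (-0.30). The highest belonged to motile cilia (0.93), smooth muscle and pericyte genes (0.39) and glucocorticoid-responsive genes (0.38).

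**Figure D4:**
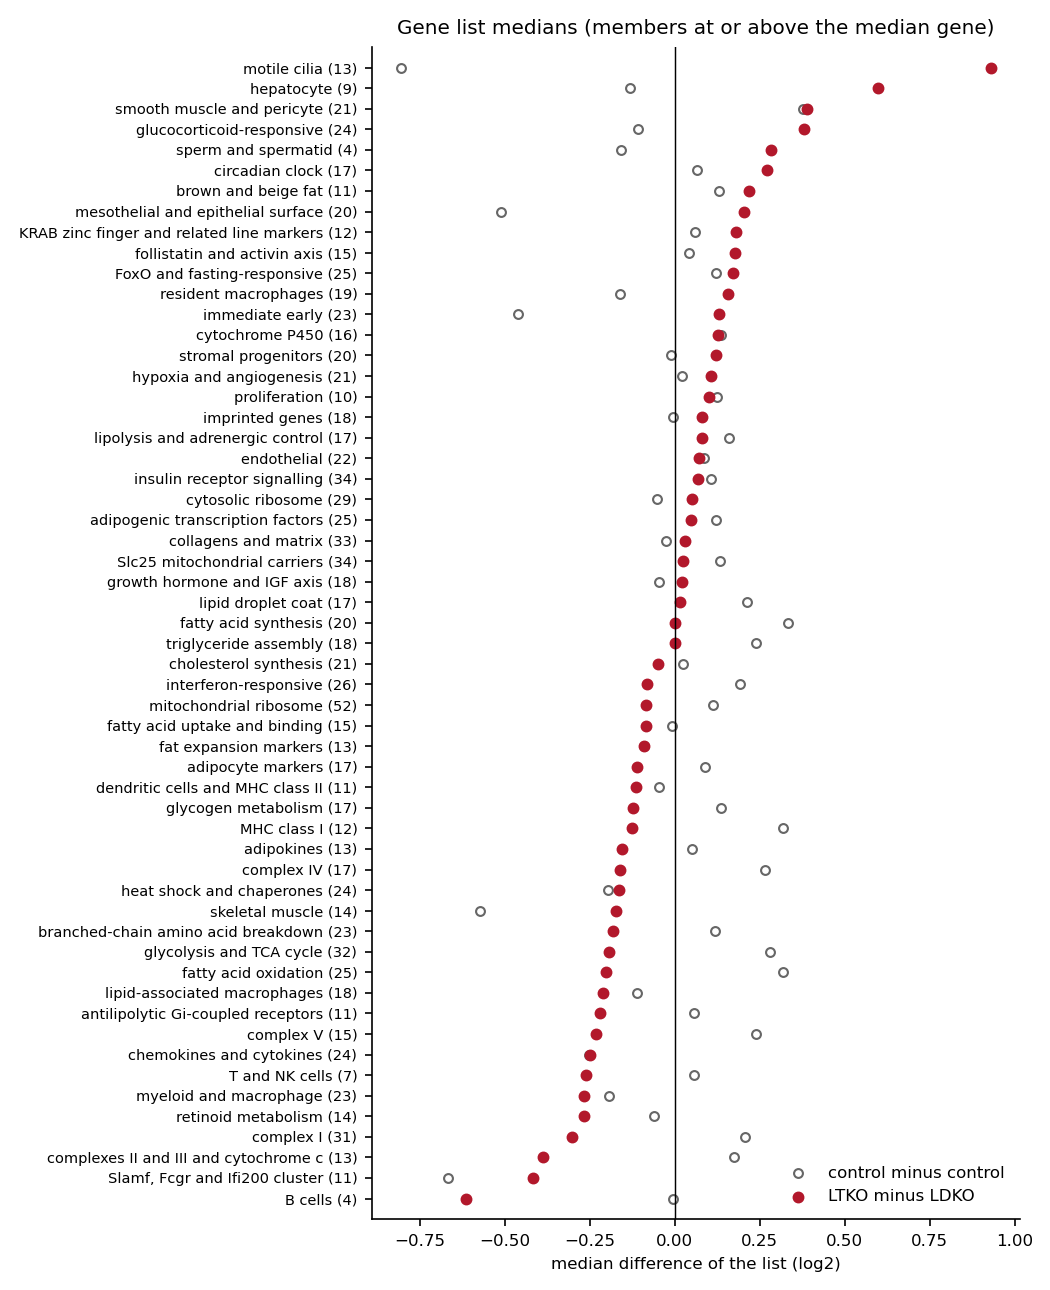
Filled points give each list's median LTKO minus LDKO difference and open points its control difference, in log2 units, for the 56 lists with at least 4 bright members, whose number is in brackets. Complexes I to V lie left of 0 for LTKO minus LDKO and right of 0 between the controls, whereas the Slamf, Fcgr and Ifi200 cluster lies left in both.

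Genes of the respiratory chain, the mitochondrial complexes that carry electrons to oxygen and make ATP, were lower in LTKO than in LDKO. Of 81 measured, 76 were bright, and 69 of the 76 were lower and 7 higher, with a median of -0.28. By complex, 30 of 31 were lower in complex I (median -0.30), 13 of 13 in complexes II and III with cytochrome c (-0.39), 13 of 17 in complex IV (-0.16) and 13 of 15 in ATP synthase, complex V (-0.23). The sizes were small, and 5 of the 76 were 1.5-fold lower. The mean signal of the 76 genes was 7.73 and 8.13 in the Irs1/2-flox line without and with Cre, and 7.91 and 7.85 in the Irs1/2:FoxO1-flox line without and with Cre. LDKO was the highest array in 62 of the 76, against 22.2% of all bright genes, and LTKO was the lowest in 15. The median of LDKO minus its own control was 0.38 and that of LTKO minus its own control was -0.06.

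LDKO was the highest of the 4 arrays in each of the single genes named here, while the order of the others varied. Cytochrome c (Cycs), the electron carrier between complexes III and IV, was 10.21, 11.39, 10.12 and 10.43, a difference of -0.96. Ndufb3, a subunit of complex I, was 6.85, 7.90, 6.96 and 6.94, a difference of -0.96, and Cyc1, cytochrome c1 of complex III, was 6.72, 7.39, 6.99 and 6.68. Cox7b of complex IV was 7.30, 8.01, 7.62 and 7.28, and Atp5l of ATP synthase was 8.46, 8.97, 8.76 and 8.44. LTKO was the lowest array for Cyc1, Cox7b and Atp5l, but not for Cycs and Ndufb3. The second probe of Cox7b differed by -0.19, less than 1.5-fold, and the 5 probes of Cycs ranged from -1.48 to -0.69. Ribosomal protein genes of mitochondria had a median of -0.08 over 52 bright members and those of the cytosol 0.05 over 29. Adipocyte markers had a median of -0.11, with 13 of 17 bright members lower in LTKO, and LDKO was the highest array in 9.

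**Figure D5:**
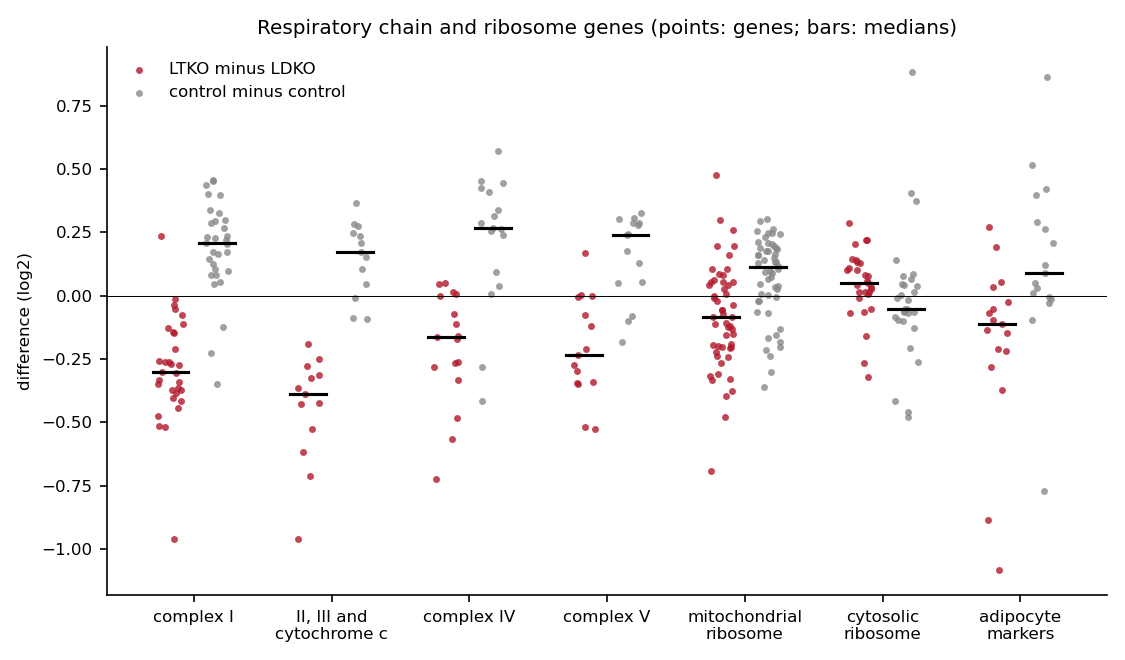
Each point is a bright gene, with LTKO minus LDKO in red, the control minus control difference in grey (log2 units) and bars at the medians. Complexes I to V lie mostly below 0 in red and above 0 in grey, with medians of -0.30, -0.39, -0.16 and -0.23. In red, adipocyte markers have a median of -0.11 and the cytosolic ribosome 0.05.

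Some promoters of respiratory chain genes carry the core site of NRF1, a transcription factor of nuclear genes for mitochondria. The letters CGCATGCGC were searched on both strands from 250 bases before to 50 after the start of each gene. They occurred in 9 of the 69 genes of complexes I to V found in the RefSeq promoter table (13%), in 7 of 51 mitochondrial ribosome genes (13.7%), in 4.13% of 8724 bright genes and in 1.95% of all 27025 genes of the table. The ERR site TCAAGGTCA was in 2 of the 69 (2.90%), in 0.264% of bright genes and in 0.466% of all. The cAMP response element TGACGTCA was in 4 of the 69 (5.80%), in 3.39% of bright genes, in 2.03% of all and in 3 of 29 cytosolic ribosome genes (10.3%). The FoxO site GTAAACA was in 1 of the 69 (1.45%), in 3.13% of bright genes and in 4.05% of all. A match describes letters and is not a site shown to be bound. What part NRF1 has in these differences was not tested. The 9 genes with the NRF1 core differed by -0.96 (Cycs) to 0.17 (Atp5g2), and Cox6a1 was at 0.01. The promoters of Cycs, Atp5l and Atp5k, the 3 lowest of the 9, are printed as examples chosen by their values, with the core in capitals. Build GRCm38.p6, RefSeq, all on the minus strand and printed 5′ to 3′ as the gene reads: chr6:50566520-50566819 for Cycs, chr9:44920693-44920992 for Atp5l and chr5:108434350-108434649 for Atp5k. In Atp5k the matches of both strands overlap, so 10 letters are in capitals.
Cycs: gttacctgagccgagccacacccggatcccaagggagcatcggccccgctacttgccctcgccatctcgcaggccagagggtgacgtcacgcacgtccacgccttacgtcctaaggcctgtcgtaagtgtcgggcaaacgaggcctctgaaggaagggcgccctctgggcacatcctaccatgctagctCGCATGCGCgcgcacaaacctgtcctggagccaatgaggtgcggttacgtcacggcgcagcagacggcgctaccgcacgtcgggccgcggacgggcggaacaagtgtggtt
Atp5l: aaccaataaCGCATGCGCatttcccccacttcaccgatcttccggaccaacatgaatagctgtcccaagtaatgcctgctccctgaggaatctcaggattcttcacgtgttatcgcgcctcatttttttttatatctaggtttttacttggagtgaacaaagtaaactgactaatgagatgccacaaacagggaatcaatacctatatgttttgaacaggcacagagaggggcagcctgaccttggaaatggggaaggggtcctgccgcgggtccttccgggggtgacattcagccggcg
Atp5k: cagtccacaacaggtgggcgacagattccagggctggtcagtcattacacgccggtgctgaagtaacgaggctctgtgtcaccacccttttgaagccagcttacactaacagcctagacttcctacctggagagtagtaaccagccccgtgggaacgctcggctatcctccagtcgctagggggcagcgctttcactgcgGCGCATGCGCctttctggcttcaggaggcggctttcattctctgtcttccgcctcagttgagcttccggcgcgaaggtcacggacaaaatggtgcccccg
The core began at -61 from the start in Cycs, at -241 in Atp5l and at -50 in Atp5k.

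Fuel pathways that feed the chain lay on the same side. The median for glycolysis and TCA cycle genes was -0.19, with 26 of 32 bright members lower in LTKO, and for fatty acid oxidation it was -0.20, with 18 of 25 lower. For breakdown of branched-chain amino acids it was -0.18, with 15 of 23 lower. The control medians had the opposite sign, at 0.28, 0.32 and 0.12, and with the control difference subtracted the medians were -0.49, -0.61 and -0.31. Triose phosphate isomerase (Tpi1), a glycolytic enzyme, was 8.35, 9.67, 8.57 and 8.70, a difference of -0.96. Oxct1, which activates ketone bodies for use, was 9.48, 10.33, 9.36 and 9.37, also -0.96. Both were highest in LDKO and similar in the 3 other arrays. LDKO was the highest array in 21 of the 32 glycolysis and TCA genes and in 14 of the 25 oxidation genes.

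Genes of fatty acid synthesis went both ways. The 20 bright members had a median of 0.00, with 10 higher and 10 lower, beside a control median of 0.33. That median was 0.14 over all measured members, -0.11 as a mean and -0.30 with the control difference subtracted. Pnpla3, a lipid droplet enzyme induced by feeding, was 6.53, 8.45, 7.64 and 7.25, a difference of -1.20. Fads2, a fatty acid desaturase, differed by 1.19 the other way. Triglyceride assembly had a median of 0.00, lipolysis 0.08 and cholesterol synthesis -0.05. Over bright members, none of these 4 medians was further than 0.10 from that of all bright genes.

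Insulin signalling genes had a median of 0.07 over 34 bright members, with single genes further out. Glut4 (Slc2a4), the insulin-responsive glucose transporter, was 7.0 without Cre and 8.04 with Cre (LDKO) in the Irs1/2-flox line, and 7.40 without Cre and 6.95 with Cre (LTKO) in the Irs1/2:FoxO1-flox line, a difference of -1.08. Pik3r1, the regulatory subunit of PI3 kinase, was 9.47, 10.08, 9.68 and 9.32, a difference of -0.76. LDKO was the highest array for both. Of 11 bright antilipolytic receptors, 4 were higher and 7 lower in LTKO, where 57.6% of all bright genes were higher. Hcar1, the lactate receptor, was 6.56, 9.04, 8.06 and 7.51, a difference of -1.53 with the controls 1.5 apart the other way. The follistatin and activin axis had a median of 0.18, with 12 of 15 bright members higher, beside 57.6% of all bright genes.

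Glucocorticoid-responsive genes were on the other side, with a median of 0.38 and 19 of 24 bright members higher in LTKO. The other 5 were lower, and Pik3r1, described above, was the lowest at -0.76. Tyrosine aminotransferase (Tat) was 5.91, 4.72, 5.39 and 6.77, a difference of 2.05. Tat is also a hepatocyte gene, and that list was higher in LTKO as given above. Fkbp5, a chaperone of the glucocorticoid receptor, was 7.77, 7.03, 7.68 and 8.0, a difference of 0.98. Pdk4, the kinase that shuts pyruvate dehydrogenase in fasting, was 11.26, 10.62, 11.39 and 11.48, a difference of 0.86. LDKO was the lowest array in 16 of the 24, beside 38.6% of all bright genes. The list of FoxO and fasting-responsive genes shares Angptl4, Ddit4 and Pdk4 with the glucocorticoid list and had a median of 0.17. Of its 25 bright members 15 were higher in LTKO, near the 57.6% of all bright genes. Ppargc1a, a coactivator of mitochondrial and fasting genes, was 6.48, 6.01, 6.88 and 7.07, a difference of 1.06. Among 17 bright clock genes 12 were higher, beside 57.6% of all bright genes, with Dbp at 0.64 and Nr1d1 at 0.58.

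Most members of the myeloid list were lower in LTKO, in part along the floxed lines, and resident macrophage genes were not. Myeloid and macrophage genes had a median of -0.27, with 20 of 23 bright members lower, beside -0.19 between the controls, and LTKO was the lowest array in 18. The Fc receptor gene Fcgr3 was 6.79, 6.64, 5.80 and 5.60, a difference of -1.05 against -0.99. Mpeg1, a pore-forming protein of macrophages, was 7.90, 7.96, 7.19 and 7.07, and the protease Ctss was 9.42, 9.27, 8.58 and 8.52. All of them paired by floxed line. Resident macrophage genes had a median of 0.16, beside -0.16 between the controls. Of their 19 bright members 11 were higher in LTKO, near the 57.6% of all bright genes. Cd209g, a C-type lectin of that list, was 6.86, 5.18, 6.98 and 6.0, where both Cre arrays were below their controls and LDKO was the lower. In bulk tissue, fewer cells of a type and less RNA per cell cannot be told apart.

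Most immunoglobulin genes were lower in LTKO, but this list was added after values were seen. A larger difference here than between the controls is therefore no separate evidence. Of 21 segments and constant regions measured, 6 were bright, and 17 were lower in LTKO, with a median of -0.80 over all 21. Of the 21, 9 were at least 2-fold lower, beside 0.383% of all genes without a filter and 2 of the 21 between the controls. Ighm, the constant region of IgM, was 8.67, 9.90, 8.45 and 8.52, a difference of -1.39, and its 7 probes ranged from -1.64 to -0.07. Here LDKO was the high array and the others were similar. The lowest difference of all 246 genes was that of a kappa variable segment of family 9, at 5.53, 6.32, 3.99 and 3.60, a line difference of -2.72. These segments have near-identical copies, so the copy measured is uncertain.

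Smooth muscle and pericyte genes were higher in LTKO, with a median of 0.39 and 18 of 21 bright members higher, but the controls differed alike at 0.38. Smooth muscle actin (Acta2) was 10.23, 9.36, 10.09 and 10.36, where LDKO was the low array. Myosin heavy chain 11 (Myh11) was 8.50, 8.30, 9.01 and 9.19, which paired by floxed line. Skeletal muscle genes had a median of -0.17 beside -0.57 between the controls, and 0.48 with the control difference subtracted. Myl1, a myosin light chain, was 6.86, 7.82, 6.31 and 6.16, a difference of -1.67, and skeletal actin (Acta1) was 8.73, 7.21, 8.13 and 8.26, a difference of 1.05 the other way. Endothelial genes lay at 0.07.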

How the data were processed

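Fat RNA was hybridised as biotin-labelled single-stranded DNA to Affymetrix whole-transcript arrays. The deposited values are log2 signals made by the authors with Affymetrix Expression Console and RMA, per the submitters' processing notes; their versions, and which arrays were normalized together, are not given in the sources. RMA hides a shift of all genes and compresses dim differences. Groups came from the labels' source names. Of 41345 probes, 23521 had 1 symbol, 1814 several and 16010 none here; symbols were matched to GRCm38.p6 through gene identifiers (23328 found), and 1082 genes had several probes.

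With 1 array a group nothing was tested, and a gene was described where it differed by 2-fold. The comparison, lists and members were chosen with earlier results of these data known. The 59 lists hold 1499 symbols, of which 134 were not matched and 1362 distinct genes were measured. Named genes were the 15 with the largest difference each way, 8 each way per class, Irs1, Irs2, Foxo1, Fst, Lep, Adipoq and up to 4 per list, without predicted, small RNA and chemoreceptor genes; Trim12c, Mir708, Tenm4, Apoa1 and other genes beyond that were picked after their values were seen. Alternatives changed the threshold, filter, probe rule, normalization (quantile, loess span 0.3) and reference. Steps were tested on simulated data. The software was Python 3.11.15 with pandas 2.3.3 and numpy 2.4.6, statsmodels 0.14.6 for loess, scipy 1.17.1 for correlations and matplotlib 3.10.9 for figures.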

Additional observations from a re-analysis of the deposited data

How the results depend on the processing

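No paired analysis was possible because each group has 1 array, and for the same reason no replicate could be left out. The count of 246 genes (176 higher and 70 lower in LTKO) became 931 (631 and 300) at 1.5-fold, 65 (48 and 17) at 3-fold, 143 (100 and 43) when genes had to reach the 70th percentile, and 480 (350 and 130) with the control difference subtracted, a value that adds the spread of 2 more arrays. It was 291 without a filter, 239 with the mean of all probes, 240 after quantile normalization again and 232 after a loess curve was removed. Line differences were 36 with a control difference of at least 0.5 and 31 with 0.5 times or more of the LTKO minus LDKO difference, against 19. At a distance of 1.5-fold, 113 genes were LTKO apart and 80 LDKO apart, against 68 and 48. The median of complexes I to V was -0.48 with the control difference subtracted, against -0.28. Of the lists, brown and beige fat turned to -0.034 over all measured members, and with the control difference subtracted retinoid metabolism turned to 0.024, heat shock to 0.052, skeletal muscle to 0.48 and chemokines to 0.002, and 31 other medians moved by 0.1 or more, 4 of which lay nearer to 0 than 0.1 and changed sign; the cause was not tested. After a loess curve was removed 48 of 49 named genes kept their side of 2-fold, and Nxnl1 fell below it. Dim genes limit what can be read: signals below the median gene are compressed, and with 1 array a group the size of differences there is uncertain.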

Other observations

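Probes outside the gene table also differed between LTKO and LDKO. Of 1814 probes with several symbols, 862 passed the filter, and 29 were 2-fold higher and 25 lower in LTKO (6.26%), 14 of them line differences. Of 16010 unnamed probes, 5380 passed, and 143 were higher and 121 lower (4.91%), 42 of them line differences.

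Some neighbouring genes were 2-fold apart in the same direction. Zim1 and Peg3 were adjacent at 3.03 and 2.23, the sperm genes Adam3 and Adam5 at 2.11 and 2.90, and Acsbg1, an acyl-CoA synthetase, and Dnaja4, a chaperone, at 1.22 and 1.02. The epididymal genes Adam7 and Adam28, with 1 measured gene between them, were at 1.55 and 1.18. Not all neighbours did so: Nap1l5, an imprinted gene, was at -1.13 and Gprin3, with 2 measured genes between, at 1.99.

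Markers of fat expansion went both ways, with 5 of 13 bright members higher and 8 lower in LTKO, a median of -0.09 and Bmp3 at -1.72. Among them Sfrp5, a secreted Wnt inhibitor, was 7.34, 5.97, 6.77 and 7.10 in the Irs1/2-flox control, LDKO, the Irs1/2:FoxO1-flox control and LTKO, a difference of 1.13 in the same direction as Mest and Peg3. Apelin (Apln), an adipokine, was 4.39, 5.24, 4.28 and 4.08, a difference of -1.16, and only LDKO reached the median gene. Bcat2, the first enzyme of branched-chain amino acid breakdown, was 7.5, 8.32, 7.88 and 7.59, and retinol-binding protein (Rbp4) was 8.90, 9.68, 8.98 and 9.02. LDKO was the outermost array in all of these.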
